A study of Saccharomyces cerevisiae with 16 samples.

Results

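The transcripts of 10 plasma membrane amino acid permease genes, AGP1, GNP1, GAP1, MUP1, BAP2, BAP3, TAT1, TAT2, PUT4 and DIP5, were followed in a wine yeast through a fermentation with and without a second yeast in the same vessel. The members were chosen by name, through the open reading frame name that each array probe carries, and are 10 of the 6256 gene probes on the arrays. All 10 passed the filter on dim probes, which kept 6184, and all 10 were well above background on all 16 arrays. The yeast was Saccharomyces cerevisiae Lalvin EC1118, an industrial wine strain, grown at 22 °C in an artificial must. In the mixed fermentations Dekkera bruxellensis ZIM 701, a spoilage yeast of wine, occupied the far side of a dialysis membrane that keeps cells apart but lets small molecules pass. In the control fermentations nothing was inoculated on that side. Cells of S. cerevisiae were sampled at 22 h while growing exponentially, at 92 h and 144 h, early and late in stationary phase, and at 187 h in decline. Fermentations were run in duplicate, which gave 8 groups of 2 arrays.

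Permeases of this family carry amino acids across the plasma membrane together with protons, and yeast sets their transcription by what the medium offers. External amino acids are sensed by the SPS complex at the plasma membrane, whose signal releases the transcription factors Stp1 and Stp2 to activate AGP1, GNP1, BAP2, BAP3, TAT1 and related genes. GAP1 and PUT4 are instead held down by nitrogen catabolite repression while preferred nitrogen sources last, through the GATA factors Gln3, Gat1, Dal80 and Gzf3. MUP1 responds to the supply of methionine. In a wine must the assimilable nitrogen is mostly taken up during growth, so the repertoire of permeases is known to change as cells enter stationary phase.

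Levels are log2 signals relative to the 75th percentile of the same array, so a level of 0 lies at that percentile and a difference of 1 is a doubling. Probes differ in brightness, so levels were compared within a gene and not between genes. Differences are given with their standard error from limma, fitted on all kept probes, and a change is called when its p-value adjusted over all 6184 probes was under 0.05. Each array held 2 spots per permease probe, whose log2 signals differed by a median of 0.06 and by at most 0.51, the latter for DIP5. Between 95.02% and 97.59% of gene spots per array were well above background. The arrays lay on 2 slides, with replicate 1 of every group on the first and replicate 2 on the second. On each slide, 1 row held the mixed fermentations and the other the controls, with the times in separate columns, so kind and time cannot be told apart from position on the slide. It is not stated whether arrays of a kind with the same number came from 1 vessel sampled repeatedly, in which case times would not be independent. RNA came from whole cultures, so a change in every cell and a change in a share of the cells cannot be told apart.

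AGP1, the broad-specificity, low-affinity permease for neutral amino acids (YCL025C, on the left arm of chromosome III), gave, at 92 h, the smallest p-value of the 10 members for any difference between the fermentations at a single time. In the control its level was 3.98 and 3.84 on the replicate arrays at 22 h, fell to 1.20 and 1.32 at 92 h, and stood at 4.18 and 3.67 at 144 h and at 4.27 and 4.14 at 187 h. In the mixed fermentation it was 3.61 and 3.64 at 22 h, 2.87 and 3.50 at 92 h, 4.57 and 4.22 at 144 h, and 4.39 and 4.15 at 187 h. With this scaling the control thus dipped on both arrays in early stationary phase and then returned to near its earlier height. Both mixed arrays of 92 h lay far above both control arrays of that time. The processed signals at 92 h were 23940.2 and 36079.1 in the mixed fermentation and 8355.5 and 10617.1 in the control, all well above background.

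At 92 h AGP1 was 3.81-fold higher in the mixed fermentation, a log2 difference of 1.93 ± 0.22 with a 95% confidence interval of 1.44 to 2.41 (adjusted p = 0.0143). Slide 1 alone gave a difference of 1.67 and slide 2 one of 2.18, each from 1 array of either kind, and the adjusted p with the slide as a block was 0.0327. It was the only one of the 10 members called at 92 h, and the only one of all probes, so that 0.0162% of probes were called. By p-value it ranked 1 among all probes, and 5 when they were ordered from the highest to the lowest signed difference. The call rested on both controls and on the second mixed array: the adjusted p was 0.0754 without mixed replicate 2 at 92 h, 0.324 without control replicate 1 and 0.196 without control replicate 2. It was 0.152 when the 92 h arrays were fitted alone. The difference itself stayed between 1.62 and 2.24 in all 15 alternatives.

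At the other times the AGP1 difference was small. It was -0.28 ± 0.22 at 22 h (adjusted p = 0.882), where both mixed arrays lay below both controls, and turned to 0.26 with scaling on spike-in probes (adjusted p = 0.624). At 144 h it was 0.47 (adjusted p = 0.557), with both mixed arrays above both controls, and at 187 h it was 0.07 (adjusted p = 0.867), with overlapping groups. Averaged over the 4 times the mixed fermentation was higher by 0.55 ± 0.11 (adjusted p = 0.0218), an average to which the 92 h arrays contributed most. That call ended without control replicate 2 of 92 h (adjusted p = 0.0560), without control replicate 2 of 144 h (adjusted p = 0.0563) and with scaling on spike-in probes (adjusted p = 0.0910).

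The dip of AGP1 in the control was large in both directions. Between 22 h and 92 h it fell by 2.65 on the log2 scale (6.27-fold, adjusted p = 4.42e-06). Between 92 h and 144 h it rose by 2.67 (6.35-fold, adjusted p = 0.000257), the second smallest p-value of all probes for that step. With spike-in scaling these control steps were -3.49 and 2.27, both called, so the rise was then smaller than the fall. In the mixed fermentation the first step was -0.44 ± 0.22 (adjusted p = 0.113) and the second a rise of 1.21 ± 0.22 (adjusted p = 0.0226). The first step of the mixed fermentation was called with median scaling (-0.53, adjusted p = 0.0485), with spike-in scaling (-1.92, adjusted p = 5.46e-05) and without mixed replicate 2 of 92 h (-0.75, adjusted p = 0.0231). The second was not called without mixed replicate 1 of 92 h, replicate 1 of 144 h or replicate 2 of 144 h, with adjusted p-values of 0.120, 0.121 and 0.0695, with the compared groups alone (adjusted p = 0.112) or with spike-in scaling (adjusted p = 0.891). From 144 h to 187 h neither fermentation changed by a called amount (0.28 in the control, -0.12 in the mixed).

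Whether the mixed minus control difference itself changed between times was tested as an interaction. From 22 h to 92 h the AGP1 difference grew by 2.21 ± 0.31 (95% confidence interval 1.53 to 2.89), the smallest p-value of all probes (unadjusted p = 1.77e-05), but it did not pass after adjustment (adjusted p = 0.109). Slide 1 gave 2.04 and slide 2 gave 2.38. From 92 h to 144 h it changed by -1.46 ± 0.31, as the control level recovered (adjusted p = 0.999). None of the 10 members was called in any of the 3 interactions in limma, and neither was any of the 6184 probes (0%), with 209, 36 and 188 probes at an unadjusted p under 0.05 for the successive steps. Over the alternatives up to 13, 1 and 43 probes were called, each without 1 control array: replicate 1 of 22 h, replicate 2 of 144 h and replicate 2 of 187 h. Over 19 alternatives the first interaction of AGP1 lay between 1.56, with spike-in scaling, and 2.52, without mixed replicate 1 of 92 h. It was called in 1 of these 19.

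**Figure D1:**
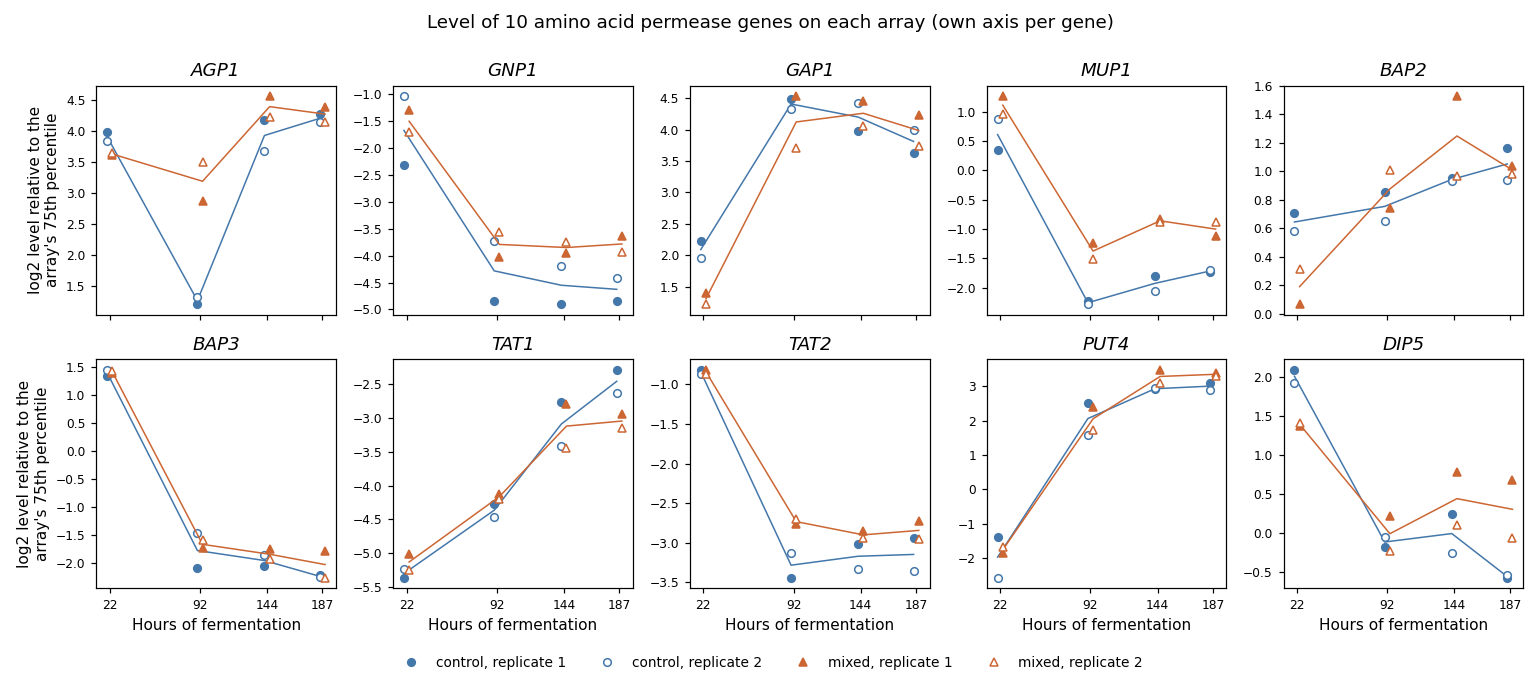
Level of each of the 10 permease genes on every array against hours of fermentation, as log2 relative to the array's 75th percentile, with an axis of its own for each gene. Circles are control and triangles mixed fermentations, filled for replicate 1 and open for replicate 2, and lines join group means (n = 2). AGP1 reads 1.20 and 1.32 in the control at 92 h and 2.87 and 3.50 in the mixed fermentation. The mixed line of MUP1 lies above its control line at every time, by an amount that varies.

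MUP1, the high-affinity methionine permease, read higher in the mixed fermentation at every time, with a called difference at 187 h and in the average over the times. Its level in the mixed fermentation was 1.27 and 0.96 at 22 h, -1.25 and -1.50 at 92 h, -0.83 and -0.89 at 144 h and -1.13 and -0.87 at 187 h. In the control it was 0.35 and 0.88, then -2.23 and -2.28, then -1.80 and -2.05, and at the end -1.73 and -1.70. The groups did not overlap at any time, though at 22 h the lower mixed array lay only just above the higher control.

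The MUP1 difference was 0.50 ± 0.19 at 22 h (adjusted p = 0.649), with 0.93 on slide 1 and 0.08 on slide 2. It was 0.88 at 92 h (adjusted p = 0.531), 1.07 at 144 h (adjusted p = 0.218) and 0.71 at 187 h (adjusted p = 0.0467), and the slides of these times lay within 0.60 to 1.16. The 187 h value was the only member called at that time, when 7.28% of probes were called. Of the calls at 187 h 38.7% were higher, against 60.9% with median scaling, 49.1% with the deposited values and 85.7% with spike-in scaling. It did not pass with the slide as a block (adjusted p = 0.05003), with spike-in scaling (adjusted p = 0.998), with the 187 h arrays alone (adjusted p = 0.262) or without mixed replicate 2 (adjusted p = 0.199), control replicate 1 (adjusted p = 0.222) or control replicate 2 (adjusted p = 0.0944) of 187 h.

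Averaged over the 4 times MUP1 was 1.73-fold higher in the mixed fermentation (0.79 ± 0.09, 95% confidence interval 0.59 to 1.00, adjusted p = 0.00669), with 0.87 on slide 1 and 0.71 on slide 2. This was the second smallest p-value of all probes, and the call held in all 26 alternatives, with adjusted p-values of at most 0.0278. With AGP1 it made 2 of 10 members called in the average, both higher, against 8.59% of all probes in either direction, 3.22% higher and 5.37% lower. The higher share of those calls was 37.5%, against 55.5% with median scaling, 49.1% with the deposited values and 97.0% of 135 calls with spike-in scaling. Besides this offset the gene fell steeply as growth ended, with differences of -2.87 in the control (adjusted p = 8.82e-07) and -2.49 in the mixed fermentation (adjusted p = 1.97e-06). The interaction for that step was 0.38 ± 0.26 (adjusted p = 1.000) and turned to -0.27 with spike-in scaling, and no later step of MUP1 was called.

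**Figure D2:**
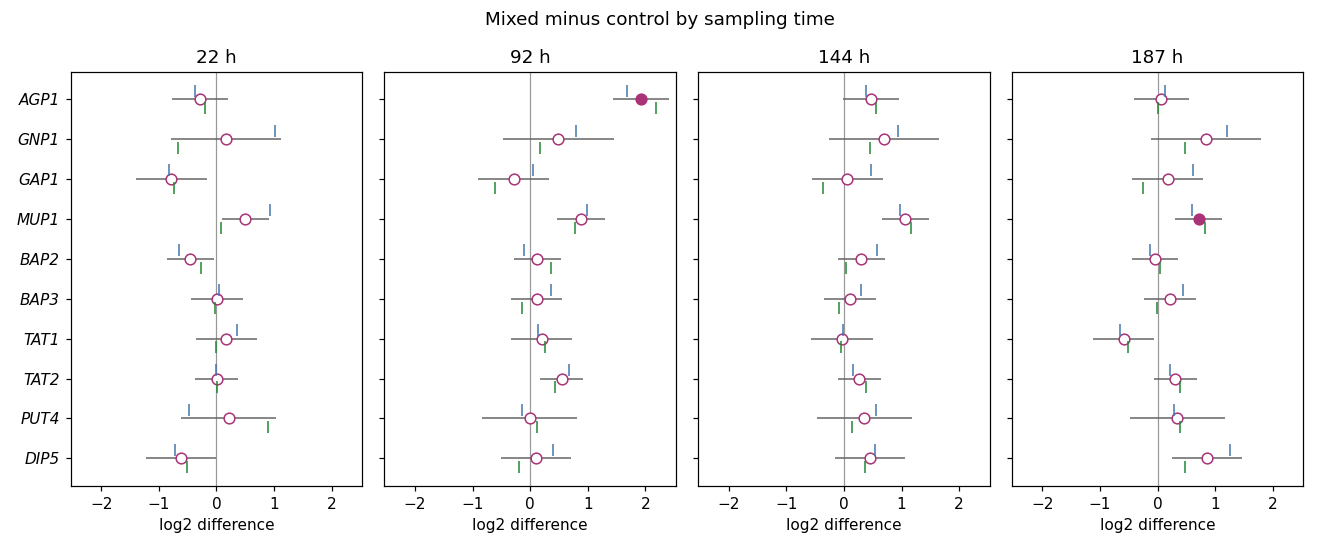
Mixed minus control log2 difference of the 10 permease genes at each sampling time. Circles are the limma estimates, filled where the adjusted p was under 0.05, horizontal lines their 95% confidence intervals, and the short upper blue and lower green ticks the differences on slides 1 and 2 (1 array of each kind). The filled circles are AGP1 at 92 h (1.93) and MUP1 at 187 h (0.71).

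For the remaining 8 members no difference between the fermentations was called at any time. At an unadjusted p under 0.05 in limma there were 4, 3, 1 and 3 of all 10 members in order of time. Over all 6184 probes that threshold was passed by 390, 348, 568 and 1792 in the same order, so at 187 h it was passed widely outside the family too. At 22 h, where no member and no probe was called (0%, with 390 probes at an unadjusted p under 0.05 in limma, and 89 called with spike-in scaling, 30 without mixed replicate 1 and 50 without control replicate 1 of 22 h), 4 of the 10 members lay lower in the mixed fermentation without overlap and 1 higher, against 21% and 13.2% of all probes. Besides AGP1 the lower ones were GAP1, BAP2 and DIP5. GAP1, the general amino acid permease, read 1.40 and 1.23 in the mixed fermentation and 2.23 and 1.96 in the control, a difference of -0.78 ± 0.28 (adjusted p = 0.610). DIP5, the glutamate and aspartate permease, read 1.37 and 1.41 against 2.09 and 1.92, a difference of -0.62 ± 0.28 (adjusted p = 0.787). BAP2, a permease of branched-chain amino acids, read 0.07 and 0.31 against 0.71 and 0.58, a difference of -0.45 ± 0.18 (adjusted p = 0.735). With spike-in scaling, which raised the median of all probes at 22 h by 0.54, the differences were nearer to 0, -0.24 for GAP1 and -0.08 for DIP5, and those of BAP2 and AGP1 turned, to 0.08 and 0.26.

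At 92 h 4 members lay higher in the mixed fermentation without overlap and 0 lower, against 20.4% and 22.2% of all probes. They were AGP1, MUP1, TAT1 (0.20) and TAT2, the high-affinity tryptophan and tyrosine permease. TAT2 read -2.77 and -2.70 in the mixed fermentation and -3.44 and -3.13 in the control, a difference of 0.55 ± 0.17 (adjusted p = 0.711), with 0.68 and 0.42 on the slides. In the average over the times TAT2 was higher by 0.28 ± 0.08 (adjusted p = 0.0637), and this passed with the median of each array (adjusted p = 0.0385), quantile normalization (adjusted p = 0.0296) and the deposited values (adjusted p = 0.0403). The 95% confidence interval of the TAT2 difference at 92 h was 0.18 to 0.92.

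At 144 h no probe was called (0%, with 568 probes at an unadjusted p under 0.05 in limma). There 6 of the 10 members lay higher without overlap and 0 lower, against 15.9% and 25.8% of all probes. These were AGP1, MUP1, GNP1, BAP2, TAT2 and PUT4, and the median difference of the 10 members was 0.33 against -0.04 for all probes. GNP1, which carries glutamine and other neutral amino acids, read -3.96 and -3.74 in the mixed fermentation and -4.90 and -4.20 in the control, a difference of 0.70 ± 0.44 (adjusted p = 0.648). Its standard error was the largest among the members: the replicates of the control at 22 h read -2.32 and -1.03.

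At 187 h the members without overlap were MUP1, GNP1, PUT4 and DIP5, all higher, and TAT1, which was lower, against 21.8% and 33.7% of all probes. DIP5 read 0.67 and -0.07 in the mixed fermentation and -0.58 and -0.55 in the control. Both mixed arrays were higher, but far apart from each other. The difference was 0.86 ± 0.28 (adjusted p = 0.0750, or 0.0449 with the slide as a block), with 1.25 and 0.48 on the slides. Of 15 alternatives only the block called it, and with the 187 h arrays alone the adjusted p was 0.262. TAT1, a permease of branched-chain amino acids and tyrosine, read -2.94 and -3.15 against -2.28 and -2.63, a difference of -0.59 ± 0.24 (adjusted p = 0.139). PUT4, the proline permease, read 3.39 and 3.29 against 3.099 and 2.90, a difference of 0.34 ± 0.38 (adjusted p = 0.576).

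The larger movement of the family was between exponential growth and early stationary phase. In the control 9 of the 10 members were called between 22 h and 92 h, 3 higher and 6 lower, while 51.1% of all probes were called in either direction, 27.7% higher and 23.3% lower. In the mixed fermentation 9 were also called, 4 higher and 5 lower, against 52.8% of all probes, 29.8% higher and 23% lower. Of all calls of this step 54.3% were higher in the control and 56.5% in the mixed fermentation, but 12.6% and 4.22% with spike-in scaling. The median difference over the 10 members was -2.28 in the control and -0.92 in the mixed fermentation, against 0.06 and 0.10 over all probes. With 4 members above 0 and 6 below in either fermentation, this median rests on the genes in the middle of the order. These were TAT2 (-2.44) and DIP5 (-2.13) in the control, and DIP5 (-1.40) and AGP1 (-0.44) in the mixed fermentation, so it does not describe the family as a whole. AGP1 fell in the control alone and BAP2 rose in the mixed fermentation alone by this count, and for neither did the interaction pass (adjusted p = 0.109 and 1.000).

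The members that rose in both fermentations were PUT4 and GAP1, both known targets of nitrogen catabolite repression, and TAT1. PUT4 read -1.37 and -2.56 in the control at 22 h and 2.52 and 1.59 at 92 h, and in the mixed fermentation it went from -1.84 and -1.66 to 2.39 and 1.72. That is a rise of 4.02 ± 0.38 in the control (16.2-fold, adjusted p = 1.02e-05) and of 3.80 in the mixed fermentation (13.9-fold, adjusted p = 1.21e-05), with no overlap in either. It stayed high, at 2.91 and 2.93 in the control and 3.48 and 3.08 in the mixed fermentation at 144 h. The further rise from 92 h to 144 h in the mixed fermentation, 1.23 ± 0.38, was called with the slide as a block alone (adjusted p = 0.0487, otherwise 0.0893).

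GAP1 went from 2.23 and 1.96 to 4.49 and 4.32 in the control, and from 1.40 and 1.23 to 4.53 and 3.71 in the mixed fermentation. The rise was 2.31 ± 0.28 (4.97-fold, adjusted p = 5.74e-05) in the control and 2.81 ± 0.28 (adjusted p = 1.25e-05). The mixed arrays thus started below the controls and by 92 h lay around them, and the interaction was 0.50 ± 0.39 (adjusted p = 1.000), or -0.15 with spike-in scaling. Later levels of GAP1 lay between 3.62 and 4.46 on all arrays of 144 h and 187 h, with no called step.

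BAP3, which takes branched-chain and other neutral amino acids, showed the steepest fall. It went from 1.35 and 1.46 to -2.10 and -1.47 in the control and from 1.40 and 1.44 to -1.74 and -1.60 in the mixed fermentation. The fall was 9.12-fold in the control (-3.19 ± 0.20, adjusted p = 8.22e-07) and 8.53-fold in the mixed fermentation (-3.09, adjusted p = 8.47e-07). The mixed and control arrays of BAP3 overlapped at all 4 times, where their difference was between 0.01 and 0.21, with 95% confidence intervals that reached from -0.44 to 0.66.

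TAT2 fell from -0.81 and -0.87 in the control, a difference of -2.44 ± 0.17 (adjusted p = 1.34e-06), and from -0.82 and -0.86 in the mixed fermentation, a difference of -1.89 (adjusted p = 6.24e-06). GNP1 fell by 2.61 ± 0.44 in the control, to -4.83 and -3.73, and by 2.29 in the mixed fermentation, to -4.03 and -3.55 (adjusted p = 0.000526 and 0.00107). DIP5 fell by 2.13 ± 0.28 in the control, to -0.18 and -0.05, and by 1.40 in the mixed fermentation, to 0.22 and -0.24 (adjusted p = 9.86e-05 and 0.00137). In all 3 genes the 22 h arrays lay above every 92 h array of their kind, and the fall was the smaller one in the mixed fermentation. With spike-in scaling this turned for TAT2 (-3.28 in the control and -3.38 in the mixed fermentation) and GNP1 (-3.45 and -3.77), and DIP5 differed by 0.08. The interactions were 0.55 ± 0.24, 0.32 ± 0.62 and 0.72 ± 0.39 in that order, and none passed (adjusted p = 1.000 for each).

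BAP2 and TAT1 are neighbouring genes on chromosome II and overlap in substrates, but their probes read differently. BAP2 moved over the smallest range of the 10, from a group mean of 0.19 to one of 1.25, and its step at the end of growth was 0.11 ± 0.18 in the control (adjusted p = 0.648) and 0.69 ± 0.18 in the mixed fermentation (adjusted p = 0.00853). The call in the mixed fermentation ended without mixed replicate 1 of 22 h (adjusted p = 0.0686) or mixed replicate 2 of 92 h (adjusted p = 0.0745). The group mean of TAT1 in the control was higher at each successive time, from -5.37 and -5.24 at 22 h through -4.27 and -4.46 and then -2.77 and -3.41 to -2.28 and -2.63, though the last step was not called (0.63, adjusted p = 0.271). The mixed arrays of TAT1 read -5.01 and -5.25, then -4.13 and -4.20, then -2.79 and -3.45, and at 187 h -2.94 and -3.15.

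The first step of TAT1 was 0.94 ± 0.24 in the control (adjusted p = 0.00749) and 0.97 in the mixed fermentation (adjusted p = 0.00579). It depended on the scaling: with quantile normalization it was 0.21 in both and not called (adjusted p = 0.446 in both). With normexp background correction followed by quantile normalization it was 0.10 and 0.15 (adjusted p = 0.695 and 0.544). With spike-in scaling it was 0.10 in the control and turned to -0.52 in the mixed fermentation. Without control replicate 1 of 92 h the control step was 0.84 (adjusted p = 0.0573). The BAP2 step also turned with spike-in scaling, to -0.80 in the mixed fermentation. That scaling lowered the median of all probes between 22 h and 92 h by 0.84 in the control and by 1.48 in the mixed fermentation. The called steps of the other 8 members at the end of growth kept their direction and their call with spike-in scaling.

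**Figure D3:**
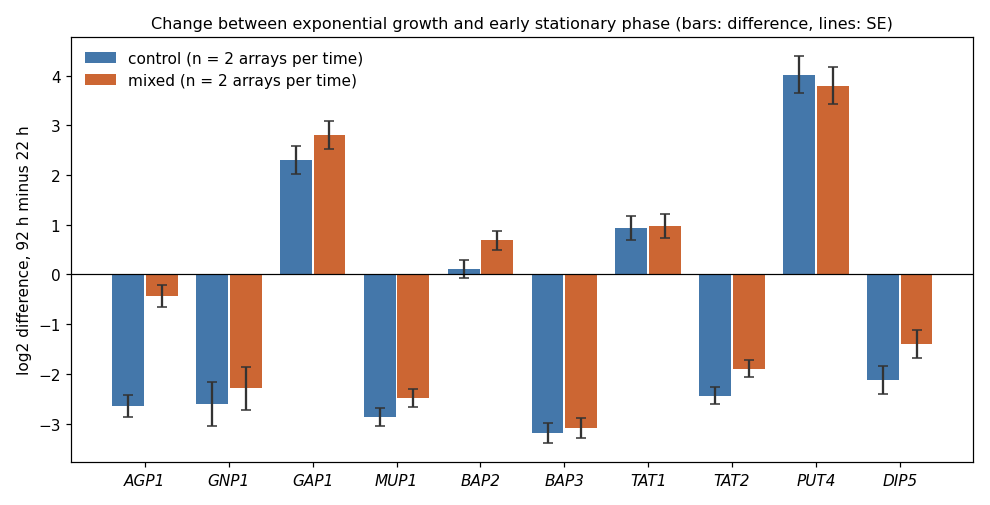
Log2 difference between 92 h and 22 h for the 10 permease genes in the control and the mixed fermentation, with 2 arrays per time and lines of 1 standard error from limma. PUT4 rose by 4.02 and 3.80 and BAP3 fell by 3.19 and 3.09, while AGP1 fell by 2.65 in the control and its difference of -0.44 in the mixed fermentation was not called.

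After 92 h few members moved. Between 92 h and 144 h 2 of the 10 members were called in the control and 2 in the mixed fermentation, all higher, against 1.13% of all probes in either direction in the control and 3.14% in the mixed fermentation (1.49% higher and 1.65% lower). Of these calls 82.9% were higher in the control and 47.4% in the mixed fermentation, against 57.1% and 62.1% with spike-in scaling, and 68.8% in the latter with median scaling. They were AGP1 and TAT1 in both. TAT1 rose by 1.28 ± 0.24 in the control (adjusted p = 0.0413) and by 1.04 in the mixed fermentation (adjusted p = 0.0485), but both calls of TAT1 ended with spike-in scaling, with the compared groups alone, and when any 1 of 3 control arrays or any 1 of the 4 mixed arrays of that step was left out. Between 144 h and 187 h no member was called in limma, against 0.0162% of all probes in the control and 1.81% in the mixed fermentation (1.42% higher). Of the latter calls 78.6% were higher, against 96.9% with spike-in scaling, 92.2% with median scaling and 89.5% with normexp background correction followed by quantile normalization. The single probe called in the control became 0 to 146 over the alternatives, the most without control replicate 2 of 187 h. At an unadjusted p under 0.05 that step held 1 member and 928 probes in the control, and 0 members and 1439 probes in the mixed fermentation.

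The order of the 8 groups differed from gene to gene. For AGP1 the highest groups were the mixed fermentation at 144 h (mean 4.39 ± 0.24, SD, n = 2) and 187 h (4.27 ± 0.17), followed by the control at 187 h, 144 h and 22 h, each overlapping its neighbour in the order. Below these stood the mixed fermentation at 22 h (3.63 ± 0.02), the mixed fermentation at 92 h (3.19 ± 0.44) and, apart from all, the control at 92 h (1.26 ± 0.08). For MUP1 both 22 h groups were highest, then all later mixed groups, then all later controls, of which the control at 92 h was lowest (-2.26 ± 0.03). For GNP1, BAP3, TAT2 and DIP5 both 22 h groups were highest too, and the later groups overlapped for the most part. For GAP1 both 22 h groups were the lowest and the 6 later groups overlapped in a chain. The span between the lowest and highest group mean ran from 1.06 in BAP2 to 5.30 in PUT4 on the log2 scale, with the other 8 members between 2.44 and 3.67.

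Genes of the surrounding pathway were taken from 5 lists of 56 genes in all. Among the 10 measured other plasma membrane permeases, UGA4, the 4-aminobutyrate permease, was the only one called between the fermentations: it was higher by 1.14 ± 0.16 at 187 h (adjusted p = 0.0263) and by 0.55 in the average (adjusted p = 0.00976), 1 of 10 against 7.28% and 8.59% of all probes. Neither call of UGA4 held with spike-in scaling (adjusted p = 0.551 and 0.0899), nor the 187 h call without control replicate 1 (adjusted p = 0.145). Between 22 h and 92 h 4 of these 10 rose and 2 fell in the control, and 4 rose and 3 fell in the mixed fermentation, against 51.1% and 52.8% of all probes called. In the control these included UGA4 (1.70) and the arginine permease gene ALP1 (2.59) on the rising side, and the S-methylmethionine permease gene MMP1 (-1.85) and the S-adenosylmethionine permease gene SAM3 (-0.74) on the falling side. The median of the list for that step was 0.02 in the control and -0.09 in the mixed fermentation.

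Of the 12 genes of SPS sensing 0 were called by limma between the fermentations at any time or in the average. At most 3, at 187 h, had an unadjusted p under 0.05, against 1792 of all 6184 probes at that time. At 187 h 1 of the 12 was called with median scaling, with the deposited values and with a variance trend. At 92 h, where AGP1 differed, their median difference was -0.01, the same as the median of all probes to 2 decimals. Between 22 h and 92 h 4 rose and 2 fell in either fermentation, a share near the 51.1% and 52.8% of all probes. In the control the transcription factor gene STP1 (0.59) and ASI1 (0.56), for a ubiquitin ligase subunit of the inner nuclear membrane, rose, and the casein kinase gene YCK2 (-0.68) and ASI3 (-0.50) fell. The larger rises in the mixed fermentation were those of ASI1 (0.81) and of the sensor gene SSY1 (0.78). With spike-in scaling STP1 and ASI1 turned to -0.24 and -0.28 in the control, and ASI1 and SSY1 to -0.67 and -0.70 in the mixed fermentation, none of them called.

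All 5 regulators of nitrogen catabolite repression were called between 22 h and 92 h in both fermentations, where 51.1% and 52.8% of all probes were called. The repressor gene DAL80 rose by 2.41 ± 0.25 in the control and by 3.48 in the mixed fermentation, and the activator gene GAT1 by 1.00 and 1.19. The other repressor gene GZF3 fell by 1.19 and 0.96, the activator gene GLN3 by 0.55 and 0.46, and URE2, whose product holds Gln3 back, by 0.60 and 0.42. With spike-in scaling GAT1 turned to -0.29 in the mixed fermentation, not called. At 22 h DAL80 differed by -1.31 ± 0.25 between the fermentations (adjusted p = 0.498). Between the fermentations only GZF3 was called, higher by 0.85 ± 0.22 in the mixed fermentation at 187 h (adjusted p = 0.0467), and this ended without either mixed array or control replicate 1 of 187 h and with spike-in scaling.

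Of the 15 genes for permease folding, sorting and ubiquitination 0 were called by limma between the fermentations. At most 2, at 187 h, had an unadjusted p under 0.05, against 1792 of all 6184 probes at that time. At 187 h 1 of the 15 was called under several alternatives, among them quantile normalization, the stricter filter and a variance trend. At the end of growth 4 rose and 1 fell in the control, and 5 rose and 1 fell in the mixed fermentation, while 51.1% and 52.8% of all probes were called. CSR2 and ROG3, which encode arrestin-like adaptors of the ubiquitin ligase Rsp5, rose by 4.01 and 1.19 in the control and by 3.87 and 1.71 in the mixed fermentation. SHR3, the chaperone that lets amino acid permeases leave the endoplasmic reticulum, fell by 0.80 and 0.86. Of the 12 measured vacuolar amino acid transporters 3 rose and 5 fell at that step in either fermentation, against the same shares of all probes, led by VBA2 (1.02 and 1.24) and YPQ1 (-1.42 and -1.49), with AVT3 (0.62 and 0.70) and YPQ2 (-0.96 and -1.17) next. Between the fermentations AVT3 was lower at 187 h (-0.49, adjusted p = 0.0491, or 0.0538 with the slide as a block) and AVT1 lower in the average (-0.33, adjusted p = 0.0317), and both calls ended under several alternatives, among them spike-in scaling. No gene of the 5 lists was called between 92 h and 144 h or between 144 h and 187 h.

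The reading frames near AGP1 were examined because YCL023C, close by on the same arm, also read higher in the mixed fermentation. FRM2, on one side of AGP1, showed no called difference at any time, with values of 0.14, 0.05, 0.49 and 0.29 in order of time. KCC4, a kinase gene of the bud neck and the next annotated gene on the other side, was -0.44 ± 0.27 at 22 h and -0.20 at 92 h. Its difference was 1.07 at 144 h (adjusted p = 0.358), and the average over the times was called (0.51, adjusted p = 0.0397). At 187 h KCC4 was higher in the mixed fermentation by 1.60 ± 0.27 (adjusted p = 0.0263). That KCC4 call ended with spike-in scaling (adjusted p = 0.0597), without control replicate 1 of 187 h (adjusted p = 0.176) and with the compared groups alone (adjusted p = 0.262). YCL023C, which is not in the annotation used here, differed by 0.63, 2.13 ± 0.39 (adjusted p = 0.345), 1.72 and 1.10 at the 4 times and by 1.39 ± 0.20 in the average (adjusted p = 0.00976). The YCL023C probe was dim, and 1 of the 2 control arrays was well above background at 22 h, so the differences at 22 h and 92 h and the average rest in part on signal that was not. At 92 h it read -8.19 and -8.25 in the control, where 1 of the 2 arrays was well above background, and -6.56 and -5.62 in the mixed fermentation. Thus at 92 h neither annotated neighbour was called with AGP1, and the YCL023C probe read higher without passing the test, except with spike-in scaling (2.02, adjusted p = 0.0110).

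**Figure D4:**
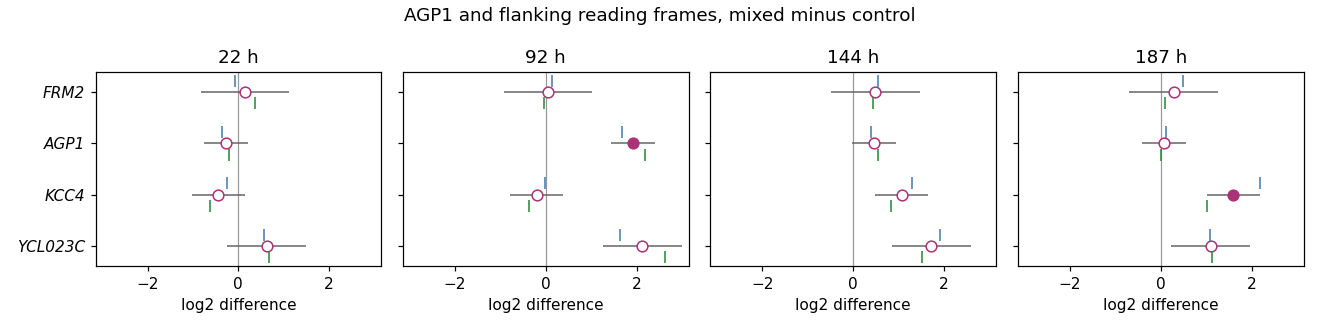
Mixed minus control log2 difference of AGP1 and of 3 reading frames near it at each sampling time. They are in the order of their open reading frame names, in which KCC4 stands between AGP1 and YCL023C. Circles are limma estimates, filled where the adjusted p was under 0.05, horizontal lines 95% confidence intervals, and upper blue and lower green ticks the differences on slides 1 and 2. At 92 h FRM2 (0.05) and KCC4 (-0.20) lie near 0, and AGP1 (1.93) and YCL023C (2.13) to the right.

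The genes whose profile over the 16 arrays was most like that of AGP1 were sought among the other probes. Likeness was measured as the root mean square difference over the 16 arrays after each of 6172 probes was centred on its own mean; AGP1 itself varied with a standard deviation of 0.97, and the median probe lay 1.09 from it. The 5 nearest probes that were no members were YKR041W (0.58), NFG1 (0.60), SMK1 (0.62), YKR040C (0.64) and CIR2 (0.64). SMK1 encodes a protein kinase of spore wall formation, and YKR041W is the next protein-coding gene beside GAP1. Since likeness chose these genes, their shared course is a description of the choice. In the control the group means of all 5 were lower at 92 h than at 22 h, with differences of -1.41 to -0.75, and higher again at 144 h, with differences of 0.89 to 1.70, against -2.65 and 2.67 for AGP1. The difference of 1.70 is that of SMK1, which was well above background on 1 of the 2 control arrays at 92 h. In the mixed fermentation their differences between 22 h and 92 h ran from -0.94 (YKR040C) to 0.66 (SMK1), against -0.44 for AGP1. At 92 h the mixed minus control differences of the 5 ran from 0.01 (CIR2) to 1.33 (SMK1), none called, against 1.93 for AGP1. With quantile normalization 2 of these 5 were again among the nearest 5, and with normexp background correction followed by quantile normalization 1.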

How the data were processed

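RNA of 16 samples was hybridised to one-colour arrays. Each scanner file gave, per the file headers, a processed intensity for every spot, already corrected for background by Agilent Feature Extraction, with 2 spots to a gene probe. The deposited value table held log2 signals of the authors, which, checked against the scanner files, had been shifted by a constant of each array's own, after which array medians lay close within a time and apart between times, so it served as an alternative within times only. The sources used here do not give how those constants were chosen.

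The log2 intensity was averaged over the spots of a probe after 50 outlier spots had been dropped (saturated gene spots, 0), and each array's 75th percentile was subtracted. A probe well above background on at least 2 arrays was kept. limma 3.58.1 in R 4.3.3 fitted 1 mean per group on all 16 arrays (degrees of freedom 8 residual, 3.26 prior), with Benjamini-Hochberg adjustment within each of 14 comparisons. The fit was tested on simulated data with independent noise, which cannot speak to dependence between arrays of a slide or vessel. With 2 arrays per group, the number of arrays limits the precision. The p-values rest on the spread between duplicate arrays, pooled over the 8 groups. In that spread fermentation and slide cannot be told apart, since the duplicates lay on different slides. Figures were drawn with Python 3.11.15 and matplotlib 3.10.9.

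The members, the lists and the tests were chosen with earlier results of these data known. Named genes were the members, the frames near AGP1 and the 5 nearest profiles. Of the lists, at most 2 genes per direction and comparison were named, those with the largest called difference. A list gene named for 1 fermentation is given in both. A table of the R64 assembly named 5756 of 6256 probes and gave neighbours, and 2 list genes, AGP3 and VBA3, were dropped by the filter. Alternatives were the median, quantile, spike-in (7 probes) and normexp scalings, the deposited values, no filter or a stricter one, the replicate number or the vessel as a block, a variance trend, the compared groups alone and each array left out. For normexp the median signal of a spot was used, and quantile normalization followed the background correction.

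The replicate number is the slide number, per the file headers. Deviations of same-numbered mixed and control arrays correlated at -0.47 (22 h), 0.24 (92 h), 0.25 (144 h) and 0.11 (187 h) over probes. Not every value was over 0.1, and the fit reported here has no block, but the number marks a shared slide, so values with the slide as a block are given beside each result whose call they change.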

Additional observations from a re-analysis of the deposited data

How the results depend on the processing

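Counts of called members depended on the processing as follows. At 92 h the count was 1, and 0 to 1 with single arrays left out, and 0 with the compared groups alone. At 187 h it was 1, and 0 to 1 with single arrays left out, and 0 with spike-in scaling and with the compared groups alone. In the average it was 2, and 1 to 2 with single arrays left out and 1 with spike-in scaling. Between 92 h and 144 h it was 2 in the control, 1 to 2 with single arrays left out, and 1 with spike-in scaling and with the compared groups alone. In the mixed fermentation it was 2, but 0 to 1 with single arrays left out, 0 with spike-in scaling and with the compared groups alone, and 1 with no filter on dim probes. The first interaction had 0, and 0 to 1 with single arrays left out. The fits of the compared groups alone have fewer samples, and of the other changes the cause was not tested.

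Every reversal of a called value came with spike-in scaling, between 22 h and 92 h. In the mixed fermentation these were BAP2 (-0.80), TAT1 (-0.52), ALP1 (-0.15), ASI1 (-0.67), SSY1 (-0.70), GAT1 (-0.29), VBA2 (-0.24) and AVT3 (-0.79), and in the control STP1 (-0.24), ASI1 (-0.28) and AVT3 (-0.22). With the replicate block the counts of called members were 0, 1, 0 and 1 at the 4 times and 2 in the average, and 3 instead of 2 between 92 h and 144 h in the mixed fermentation. The block ended the 187 h calls of MUP1 (adjusted p = 0.05003) and AVT3 (adjusted p = 0.0538), added DIP5 (adjusted p = 0.0449) and the PUT4 step (adjusted p = 0.0487), and changed no other call named here. A crossed block at 22 h, added after seeing the data, called 0 members and 0 probes. Over all probes the count ranged from 0 to 89 at 22 h (0 in the main setting), from 0 to 6 at 92 h (1) and from 0 to 2 at 144 h (0). At 187 h it ranged from 0 to 576 (450 in the main setting), in the average from 56 to 865 (531), between 92 h and 144 h from 2 to 89 (70) in the control and from 3 to 349 (194) in the mixed fermentation, and between 144 h and 187 h from 0 to 146 (1) in the control and from 0 to 221 (112) in the mixed fermentation.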

Other observations

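Some groups of the permease genes held duplicates that lay far apart. AGP1 in the mixed fermentation at 92 h read 2.87 and 3.50 (SD 0.44), against 1.20 and 1.32 (SD 0.08) in the control of that time. DIP5 in the mixed fermentation read 0.78 and 0.10 at 144 h (SD 0.48) and 0.67 and -0.07 at 187 h (SD 0.52), with replicate 1 the higher at both times, while its controls at 187 h lay within an SD of 0.02. GNP1 in the control at 22 h (SD 0.91) and 92 h (SD 0.78) and PUT4 in the control at 22 h (SD 0.85) were the widest pairs of all members.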
